A study of Rattus norvegicus with 2 samples.

Results

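Mitochondrial carriers of the SLC25 family were followed across a pair of arrays that set newborn rat epidermal keratinocytes with siRNAs against Tet2 and Tet3 against control cells. A gene belonged to the family where its symbol in the platform annotation was Slc25a followed by a number. This rule gave 38 of 15037 named genes, each read by 1 probe set, and each gene was placed in a class by the substrate it is known to carry. RNA levels were read on oligonucleotide arrays that cover whole transcripts, with 1 array for each group. The siTet2/3 cells were transfected with both siRNAs at 1 µM each; the control cells are labelled NC+VC and described as non-treated, and whether they received another siRNA is not stated in the labels. Both cultures were primary keratinocytes of unstated strain, grown in serum-containing medium with hydrocortisone, and both received vitamin C for 12 h. For the siTet2/3 cells, vitamin C began 24 h after transfection. Values are log2 signals on the scale that the authors deposited. With no replicate in either group, no test was possible, so "higher" and "lower" are statements about this pair of arrays.

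Carriers of this family sit in the inner membrane of mitochondria, with a few in other membranes, and move metabolites, nucleotides, cofactors and ions between the cytosol and the matrix. They are encoded in the nucleus, and their precursors are led through the outer membrane and the space behind it by small chaperones before they are inserted. Slc25a39 and its paralogue Slc25a40 import glutathione, the main soluble antioxidant thiol, into mitochondria, as shown in human and mouse cells. The siRNAs target TET enzymes, which start the removal of methyl groups from cytosine and are stimulated by vitamin C.

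The label of the cells was checked against fixed marker lists, and a gene was called above background where its higher value reached 5.04 log2 units, the 95th percentile of 1206 chemoreceptor genes. All 9 keratinocyte markers with a named probe were above this floor, at 12.68 to 18.86 log2 units on the siTet2/3 array and 13.05 to 18.79 on the control array. Of the markers of other cells, 0 of 8 fibroblast, 1 of 6 melanocyte, 1 of 6 immune and 1 of 5 endothelial genes were above it (Mitf, Cd68 and Tek). Mitf (5.41 on the siTet2/3 array and 5.33 on the control array) and Cd68 (5.24 and 5.52) lay close to the floor. Tek, at 9.25 and 9.66, lay well above it. The knockdown itself could not be checked, because Tet2 and Tet3 had no named probe.

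Slc25a39, the glutathione carrier, differed most within the family. It read 8.17 log2 units on the siTet2/3 array, against 9.96 on the control array, a difference of -1.80 or 3.48-fold lower. The other 25 carriers above the floor lay between -0.68 and 0.81, so that Slc25a39 stood 1.12 log2 units below the next carrier. It was the lowest but 6 of all 8103 named genes above the floor, and ranked 6 among the 7504 that cleared it on the siTet2/3 and control arrays alike. Il36rn and Dph2, its neighbours in the ranking of decreases at -1.81 and -1.79, lay below the floor on the siTet2/3 array, whereas Slc25a39 was above it on both. Among the 405 genes of about the same mean level (8.93 to 9.35 log2 units) the robust SD of the differences was 0.41, and 2 of them, Slc25a39 included, were at least as low. A stricter floor, from the negative-control probes, lay at 8.31 log2 units and so just above the siTet2/3 value; measured against it the gene was at least 3.15-fold lower. In a culture of this kind fewer cells that express a gene and less RNA per cell cannot be told apart.

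The genes beside Slc25a39 on chromosome 10 were not lower with it. In the order of the RefSeq assembly GRCr8, the nearest 3 genes with a named probe on each side were Rundc3a, Slc4a1 and Ubtf, and Grn, Fzd2 and Ccdc43. Rundc3a and Slc4a1 were below the floor, and the other 4 differed by -0.10 to 0.24. RefSeq names 8 pseudogenes after Slc25a39, more than after any other carrier on the array except Slc25a5, the ADP/ATP translocase 2 gene, with 9. A further 7 carriers have 1 or 2 and 29 have none. Whether such copies add to the signal of these probe sets was not tested.

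Promoter windows of 250 bases before and 50 after the RefSeq start (GRCr8) are shown for the carrier that was lowest, for a pair of carriers that were less far down and for a carrier that was higher, because TET enzymes act on CpG sites; the capitals mark each CpG. The windows are chr10:87866924-87867223 (minus strand) for Slc25a39, chr5:64458955-64459254 (minus strand) for Slc25a51, chr7:114767114-114767413 (minus strand) for Slc25a17 and chr2:199449175-199449474 (plus strand) for Slc25a24.
Slc25a39: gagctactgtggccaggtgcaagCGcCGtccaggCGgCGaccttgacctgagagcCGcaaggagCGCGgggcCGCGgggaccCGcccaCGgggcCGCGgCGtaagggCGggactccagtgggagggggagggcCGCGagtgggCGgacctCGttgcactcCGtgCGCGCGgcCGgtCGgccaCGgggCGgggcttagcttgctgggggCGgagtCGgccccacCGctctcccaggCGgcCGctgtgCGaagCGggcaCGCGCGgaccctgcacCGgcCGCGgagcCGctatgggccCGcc
Slc25a51: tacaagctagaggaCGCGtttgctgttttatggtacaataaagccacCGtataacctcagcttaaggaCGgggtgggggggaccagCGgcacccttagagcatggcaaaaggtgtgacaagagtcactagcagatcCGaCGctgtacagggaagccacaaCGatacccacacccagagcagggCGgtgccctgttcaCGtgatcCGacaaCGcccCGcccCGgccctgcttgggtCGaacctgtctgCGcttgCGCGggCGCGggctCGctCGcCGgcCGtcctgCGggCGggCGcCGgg
Slc25a17: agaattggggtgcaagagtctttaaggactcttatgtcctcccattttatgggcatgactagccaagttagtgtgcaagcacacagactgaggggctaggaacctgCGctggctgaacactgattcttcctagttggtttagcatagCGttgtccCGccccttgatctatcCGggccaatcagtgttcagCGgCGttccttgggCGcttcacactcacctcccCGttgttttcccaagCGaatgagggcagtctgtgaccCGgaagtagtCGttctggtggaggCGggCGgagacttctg
Slc25a24: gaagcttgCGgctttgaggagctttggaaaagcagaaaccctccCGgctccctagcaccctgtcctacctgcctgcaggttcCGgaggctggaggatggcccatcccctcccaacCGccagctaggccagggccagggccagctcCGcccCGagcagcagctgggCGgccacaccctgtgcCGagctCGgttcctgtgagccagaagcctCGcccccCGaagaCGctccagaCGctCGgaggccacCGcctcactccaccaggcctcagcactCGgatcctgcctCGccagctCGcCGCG
The Slc25a39 window held 42 CpG sites, the most among the 34 carriers with a window in the table, and more than 97.6% of all 33469 windows. Slc25a51 had 28, Slc25a17 13 and Slc25a24 20. These counts overlapped between carriers that were lower (13 to 42, 4 genes), higher (20 to 40, 3 genes) and neither (6 to 30, 15 genes with a window). The median was 17 over the 34 carriers, of which 12 were below the floor and had a median of 8.5. Carriers above the floor had medians of 21.5 (lower), 32 (higher) and 22 (neither). The 7150 genes above the floor that had a window had a median of 22. No methylation was measured in these samples.

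Of the motifs searched on both strands, GGGCGG, the GC box bound by Sp1 factors, which itself holds a CpG, occurred 5 times in the Slc25a39 window. It was found in 70.6% of the carrier windows and in 33.1% of all windows. All 33469 windows had a median of 7 CpG sites, against 17 in the carrier windows. Motif shares over genes above the floor were not computed, so the shares given here are not read as a trait of the family. CCAAT was in 55.9% of the carrier windows (37.5% of all), CCGGAAG, an ETS-type site, in 20.6% (8.75% of all) and GCGTG in 44.1% (29.7% of all). TATAAA was in 2.94% (14.2% of all), ACGTG in 17.6% (19.3% of all), and the AP-1 site TGACTCA, read as TGAGTCA on the other strand, in 2.94% (4.63% of all). In the Slc25a39 window GCGTG was found 1 time, and the letters of the other motifs were not found.

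Across the family the differences went both ways. Of the 38 carriers, 26 were above the floor, and 24 of these on both arrays. Past the 1.5-fold limit, 4 of the 26 were lower on the siTet2/3 array and 3 were higher, which left 19 within it. That was 15.4% lower and 11.5% higher, against 13.2% and 8.63% of all 8103 named genes above the floor, so the family's shares were near the background. Above the stricter floor from the negative-control probes, 2 of 12 carriers were lower and 1 was higher, against 11% and 6.01% of 4124 genes. The median difference was -0.12, against -0.05 for all genes, and it was -0.03 without Slc25a39. At 2-fold only Slc25a39 was lower and 0 carriers were higher, where the shares over all genes were 3.05% and 1.81%. The plot of carriers among all genes shows the family spread through the cloud, with Slc25a39 at its lower edge.

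**Figure D1:**
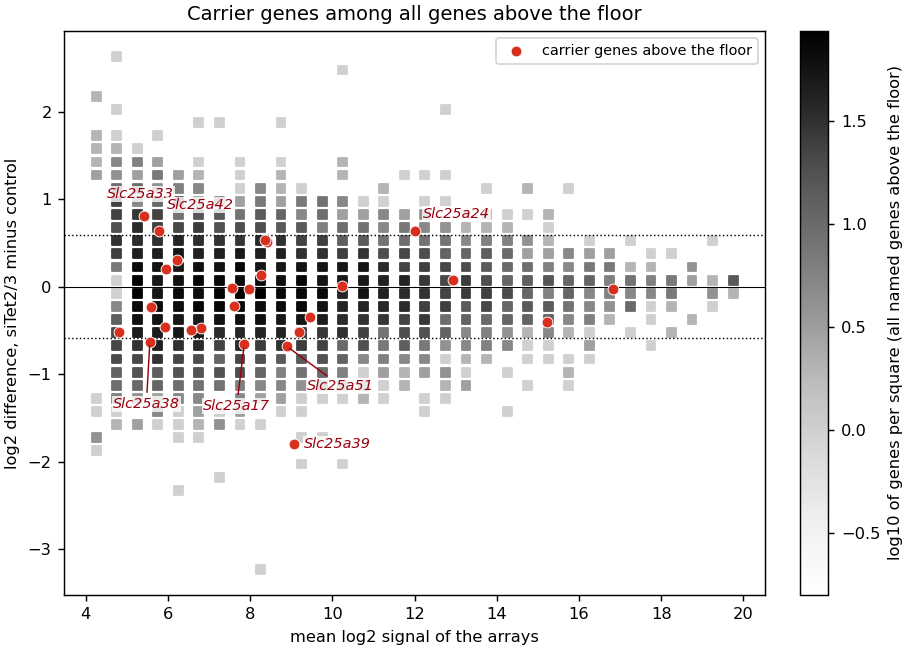
Log2 difference (siTet2/3 minus control, vertical) against mean log2 signal (horizontal); grey squares count all 8103 named genes above the floor, red points are the 26 carriers above it, and dotted lines mark 1.5-fold. Slc25a39 lies at -1.80, away from the other carriers, which lie between -0.68 and 0.81.

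The iron and glutathione carriers had 3 members with a named probe, and Slc25a40 was not analysed here. Beside Slc25a39, the mitoferrin 1 gene Slc25a37, which encodes an iron importer of the inner membrane, read 6.55 log2 units on the siTet2/3 array and 7.03 on the control array, a difference of -0.47. The mitoferrin 2 gene Slc25a28, whose product imports iron in many tissues, read 6.06 on the siTet2/3 array and 5.85 on the control array. The signs of the 2 mitoferrin genes thus differed, and neither reached 1.5-fold. Both differences lay within the robust SD of genes at their level (0.48 for Slc25a37 and 0.54 for Slc25a28). Both genes also lay under the stricter floor from the negative-control probes on both arrays, so no direction is read from them.

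Of the 6 cofactor and nucleotide carriers, 4 were past 1.5-fold, 2 in each direction, where 21.8% of all genes above the floor were past it either way. Slc25a51 alone of these 4 was also above the stricter floor from the negative-control probes. Slc25a51, which imports NAD into mitochondria, was 1.60-fold lower, at 8.55 on the siTet2/3 array against 9.23 on the control array. Slc25a17, a carrier of coenzyme A, FAD and NAD in the membrane of peroxisomes, was 1.58-fold lower (7.53 against 8.18). In the other direction, Slc25a33, which imports pyrimidine nucleotides, read 5.81 on the siTet2/3 array and 5.00, just below the floor, on the control array, so that it was at least 1.71-fold higher. Slc25a42, which imports coenzyme A, was 1.55-fold higher (6.10 against 5.46). Slc25a32, a carrier linked to folate and FAD, fell short of the limit at 0.51 (8.67 against 8.16). Slc25a16, also linked to coenzyme A, read 7.54 against 7.56. As measured, the genes tied to coenzyme A, FAD and NAD did not all have the same sign. Slc25a17, Slc25a42 and Slc25a16 lay under the stricter floor on both arrays, so no direction is read from them.

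**Figure D2:**
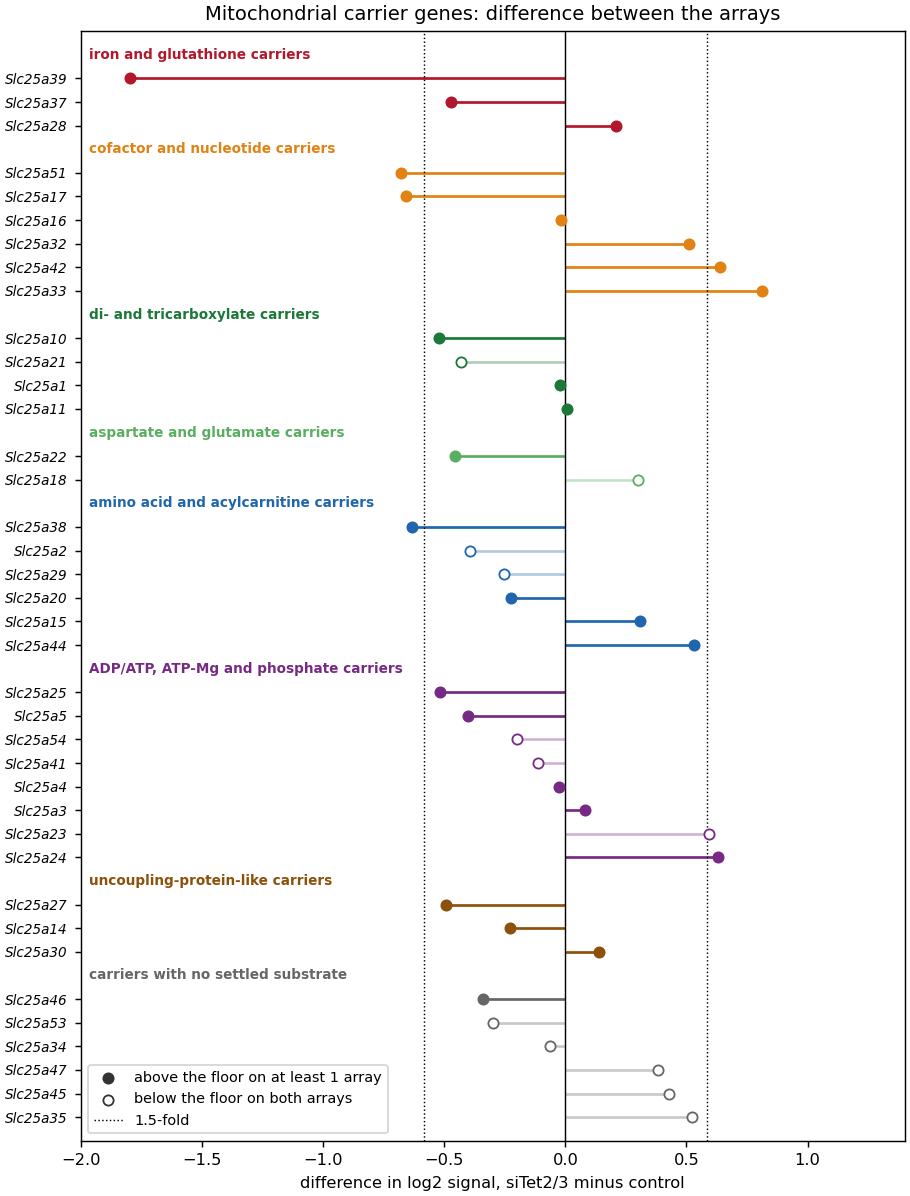
Difference in log2 signal (siTet2/3 minus control, 1 array each) for each of the 38 carriers, grouped by substrate class; filled points are above the floor on at least 1 array, open points below it on both, and dotted lines mark 1.5-fold. The bar of Slc25a39 ends at -1.80, and 6 other filled points lie past 1.5-fold, 3 on each side.

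None of the carriers of di- and tricarboxylates or glutamate that were above the floor reached 1.5-fold. The aspartate and glutamate class held glutamate carriers only, so aspartate carriers of this class were not read here. The citrate carrier gene Slc25a1, whose product feeds cytosolic acetyl-CoA for lipid synthesis, read 7.96 log2 units on the siTet2/3 array and 7.98 on the control array. The 2-oxoglutarate carrier gene Slc25a11, part of the malate-aspartate shuttle, read 10.22 on each. Neither differed by more than 0.03 log2 units. The dicarboxylate carrier gene Slc25a10, which exchanges malate or succinate for phosphate, differed by -0.52 (8.93 against 9.44), and the glutamate carrier gene Slc25a22 by -0.46 (5.69 against 6.15). Both lay inside the 1.5-fold limit of 0.58 log2 units. The 2-oxoadipate carrier gene Slc25a21 and the second glutamate carrier gene Slc25a18 were below the floor on both arrays.

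Among carriers of amino acids and acylcarnitines, Slc25a38, which imports the glycine used at the first step of haem synthesis, was 1.55-fold lower, at 5.24 log2 units on the siTet2/3 array against 5.87 on the control array. This difference of -0.63 was close to the robust SD of genes at its level (0.60), and both values lay under the stricter floor. After centring on the median difference of all genes Slc25a38 fell just short of 1.5-fold, at -0.58. Slc25a44, a carrier of branched-chain amino acids, differed by 0.53 in the other direction (8.63 against 8.10), and passed 1.5-fold after a trend on level was removed, at 0.59. The ornithine carrier gene Slc25a15 read 6.36 against 6.05 log2 units. The carnitine-acylcarnitine carrier gene Slc25a20, which serves fatty acid oxidation, read 7.49 against 7.72. Slc25a2 and Slc25a29, carriers of ornithine and other basic amino acids, were below the floor.

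The carriers of energy exchange included a calcium-regulated member that was higher. Slc25a24, which exchanges ATP-Mg for phosphate and so sets the adenine nucleotide pool of the matrix, read 12.32 log2 units on the siTet2/3 array against 11.69 on the control array, 1.55-fold higher. The ADP/ATP translocase genes Slc25a4 and Slc25a5, whose products export ATP from mitochondria, differed by -0.03 (16.81 against 16.84) and -0.40 (15.01 against 15.41). The phosphate carrier gene Slc25a3 differed by 0.08 (12.96 against 12.88). Slc25a24 was thus the only gene of this class past the limit in either direction among the 5 above the floor. Slc25a25, which like Slc25a24 responds to calcium, reached the floor on the control array only, at 5.08, and read 4.56 on the siTet2/3 array, so its bound was 1.03-fold lower; as measured it differed by -0.52, and by -0.61 after the trend on level was removed. Slc25a23, Slc25a41 and Slc25a54 were below the floor. Slc25a54 lies beside Slc25a24 on chromosome 2 in GRCr8, and read 2.85 on the siTet2/3 array and 3.05 on the control array.

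**Figure D3:**
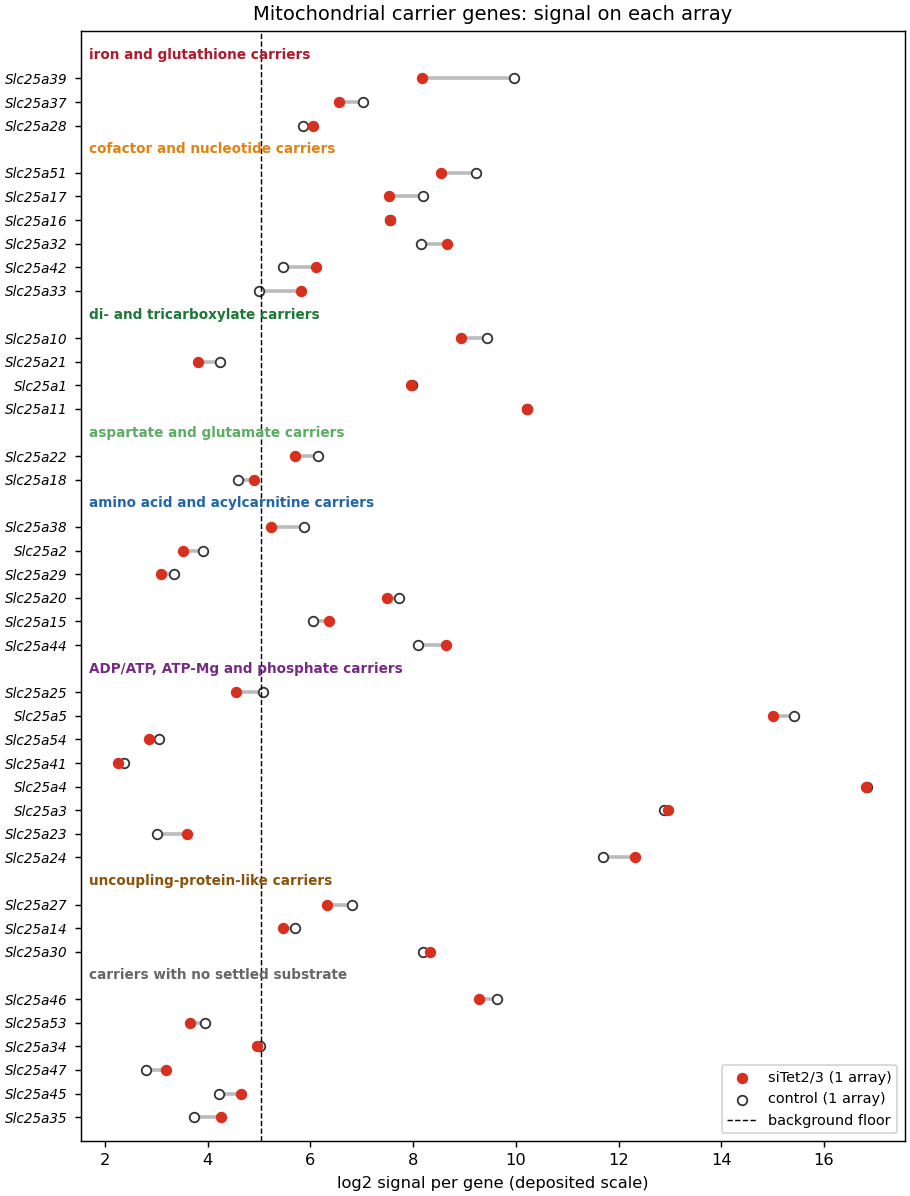
Log2 signal of the 38 carriers on the siTet2/3 array (red) and the control array (open), grouped by substrate class, with the background floor of 5.04 log2 units as a dashed line. Slc25a39 has the widest gap (8.17 and 9.96), and 12 carriers lie left of the floor on both arrays; signals of different probe sets are not on a common scale and are not compared.

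The uncoupling-protein-like carriers Slc25a27, Slc25a14 and Slc25a30, none of which has a settled role in keratinocytes, differed by -0.49 (6.32 against 6.81), -0.23 (5.47 against 5.70) and 0.14 (8.34 against 8.20). Of the carriers with no settled substrate, only Slc25a46, an outer-membrane protein of mitochondrial shape and fusion, was above the floor, and it differed by -0.34 (9.28 against 9.62). The other 5, Slc25a34, Slc25a35, Slc25a45, Slc25a47 and Slc25a53, were below it on both arrays. Together with the 7 named above, 12 carriers were below the floor, and a difference cannot be read from them; as measured these ran from -0.43 for Slc25a21 to 0.59 for Slc25a23.

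Lists of genes that work with the carriers were set beside them. Among 15 glutathione and thiol genes that passed the floor, 3 were lower and 1 was higher by 1.5-fold or more, with a median of -0.13. That was 20% lower and 6.67% higher, against 13.2% and 8.63% of all genes above the floor. The lower ones were the mitochondrial thioredoxin gene Txn2 (1.98-fold, 8.37 against 9.36), the glutathione-degrading enzyme gene Chac1 (1.67-fold, 6.46 against 7.20) and the cystine importer gene Slc7a11 (1.55-fold, 10.57 against 11.21). Hagh, a glyoxalase gene, was 1.55-fold higher. The genes of glutathione synthesis itself, Gclc, Gclm and Gss, differed by -0.26, -0.17 and -0.08, and the glutathione reductase gene Gsr by 0.13. Afg3l2, whose protease degrades the SLC25A39 protein in human cells, differed by -0.37 (9.54 against 9.91). None of these 5 reached 1.5-fold, whereas Slc25a39 was 3.48-fold lower.

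Haem and iron-sulphur cluster genes, which depend on the iron and glycine that carriers bring in, had 1 of 19 members lower and 3 higher, with a median of -0.20. In share this was 5.26% lower and 15.8% higher, against 13.2% and 8.63% of all genes. Urod, which encodes an enzyme of the cytosolic steps of haem synthesis, was 2.11-fold higher, at 8.67 log2 units on the siTet2/3 array against 7.59 on the control array. Its control value lay under the stricter floor of 8.31. Uros, of the step before Urod, was at least 1.39-fold higher (5.51 against 4.04, the control value being under the floor of 5.04). The cluster assembly gene Isca1 was 1.52-fold higher. Ppox, of the last step but one, was at least 1.42-fold lower, at 4.50 against 5.55, the siTet2/3 value being under the floor. The rate-limiting enzyme gene Alas1, which uses the glycine brought in by Slc25a38, differed by -0.02, and the ferrochelatase gene Fech, which uses iron, by 0.15.

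Enzymes on either side of the carriers had 1 of 29 members lower, 1 higher and a median of -0.03. Each was 3.45% of the list, against 13.2% lower and 8.63% higher among all genes. Got1, the cytosolic aspartate aminotransferase of the malate-aspartate shuttle, was 1.56-fold lower (7.05 against 7.69), while its mitochondrial partner Got2 differed by -0.42. Arg2, the mitochondrial arginase gene, whose product makes the ornithine that Slc25a15 carries, was at least 1.86-fold higher. Cs and Acly, which make and cleave the citrate moved by Slc25a1, differed by -0.58 and 0.40.

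Other transporters and channels of the mitochondrial membranes had 2 of 16 members lower, 1 higher and a median of -0.03. These shares, 12.5% and 6.25%, were near the 13.2% and 8.63% of all genes. The lower ones were Mcu, the pore of the calcium uniporter (2.04-fold, 7.45 against 8.48), and the sodium-calcium exchanger gene Slc8b1 (1.96-fold, 5.84 against 6.81). Micu2, a regulatory subunit of the uniporter, differed by 0.06 (10.30 against 10.24), and Letm1, another inner-membrane gene tied to ion exchange, by -0.04. The serine transporter gene Sfxn1 was 1.64-fold higher (10.40 against 9.68). The pyruvate carrier genes Mpc1 and Mpc2 differed by -0.03 and 0.47, and the carrier-family relatives Ucp2, Mtch1 and Mtch2, whose symbols lie outside the pattern, by 0.01, -0.12 and 0.04.

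Mitochondrial protein import genes had 3 of 17 members lower and 0 higher, with a median of -0.05. The 3 were Timm9 (1.76-fold, 6.49 against 7.31), Timm13 (at least 1.93-fold) and Timm10 (at least 1.13-fold), which encode small chaperones of the space between the membranes. Timm8a1 and Timm8b, which encode others of the kind, differed by -0.07 (10.21 against 10.28) and 0.15 (9.23 against 9.08). Timm13 and Timm10 read 4.95 and 3.98 on the siTet2/3 array, under the floor, against 5.99 and 5.21 on the control array. Timm9 and Timm10 are known to escort carrier precursors. Timm22, the insertase for carriers, differed by -0.04 (9.15 against 9.19), Timm29, its partner subunit, by -0.41 and the receptor gene Tomm70, which binds carrier precursors, by 0.24. In share, 17.6% of this list was lower and 0% higher, against 13.2% and 8.63% of all genes above the floor. Timm9, Timm10 and Timm13 lay under the stricter floor on both arrays, and of the 12 import genes above it 0 were lower or higher by 1.5-fold. Over all 4124 genes above that floor, 11% were lower and 6.01% higher.

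**Figure D4:**
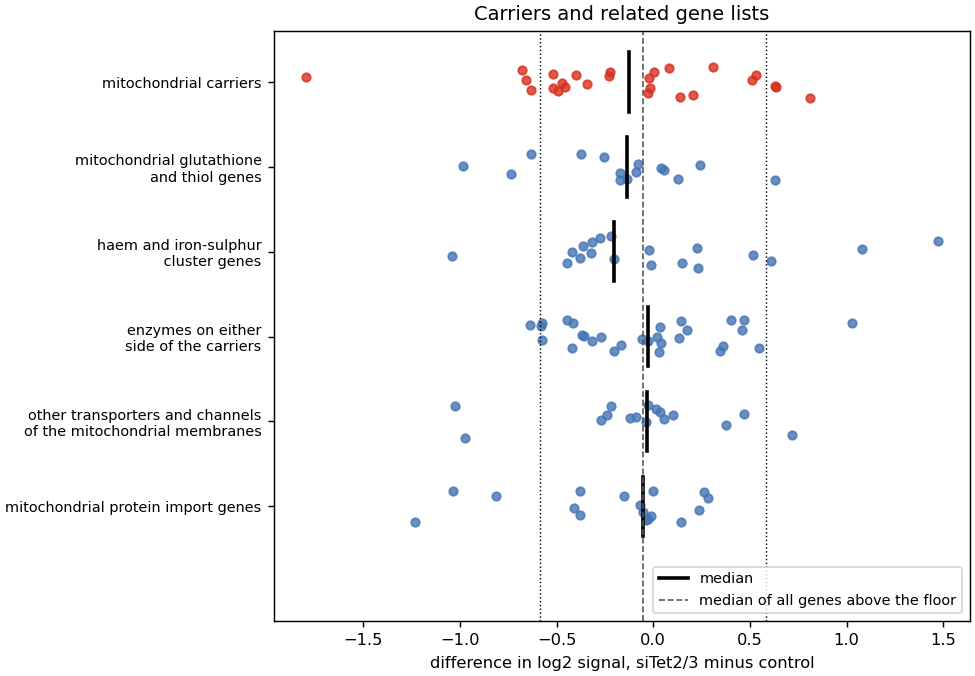
Difference in log2 signal (siTet2/3 minus control) of each gene above the floor, with carriers in red, the 5 related lists in blue, a black bar at each list's median and a dashed line at the median of all genes (-0.05). The list medians lie between -0.20 and -0.03, and Slc25a39 is the point furthest left.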

How the data were processed

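Per the labels' protocols, total RNA went through a column kit and a whole-transcript labelling kit; there was 1 array per group. The deposited values are log2 signals per probe set, for which the submitters' processing notes name RMA and the Transcriptome Analysis Console; no source used here gives versions, a genome build or the probe annotation. RMA brings arrays to 1 distribution, so a shift of all genes together would not show. The table held 24834 rows, of which 15049 had 1 gene symbol in the platform annotation, for 15037 genes; the mean was taken for 10 genes with several probes. There were 0 columns of unknown samples.

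The log2 difference, siTet2/3 minus control, was taken per gene in Python 3.11.15 with pandas 2.3.3. The floor was the 95th percentile of the higher value of 1206 chemoreceptor genes, and the size limit was 1.5-fold. Where 1 value lay below the floor, the fold is a bound against the floor; counts use differences as measured. Level groups were 20 equal bins of the mean. The trend on level was a lowess fit (statsmodels 0.14.6, fraction 0.3). The counting step was run on simulated data with noise smaller than the spread of the differences here. That run does not measure how reliable the counts are. The members, lists, classes and settings were chosen with earlier results of these data known. All carriers are named; in each related list up to 3 members past 1.5-fold in each direction are named by rule, and others were named for their role after their values were seen. The number of arrays limits the precision of every value.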

Additional observations from a re-analysis of the deposited data

How the results depend on the processing

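No paired analysis was possible because each group had 1 array. Slc25a39 was -1.74 after centring and -1.72 once the trend on level was taken out; the brightest probe and values raised to the floor could not move it, since it has 1 probe set and lies above the floor on both arrays. With the floor from the negative-control probes, 12 carriers remained, of which 1 was higher and 2 were lower (Slc25a24, and Slc25a39 and Slc25a51), and at a 2-fold limit 0 were higher and 1 was lower. The negative-control floor was added for the related lists after seeing the data. With it, 0 were higher and 2 lower of 10 glutathione and thiol genes, and 2 and 0 of 10 haem and iron-sulphur cluster genes. The counts were 0 and 0 of 22 partner enzymes and of 12 import genes, and 1 and 1 of 13 other transporters. A gene was counted at this floor where its higher value reached it. Among those counted, Slc25a39 and Mcu lay under this floor on the siTet2/3 array (8.17 and 7.45). Urod lay under it on the control array (7.59), so the sizes of these differences are not fully read at this floor. Over all 4124 genes above that floor, 6.01% were higher and 11% lower. Under the other alternatives tried for the carriers, the counts were 2 to 4 higher and 3 to 5 lower. These were out of 38 carriers with no floor, 22 with the floor 1 log2 unit higher, and 26 otherwise. Shares over all genes are given only for centring and for the trend on level, so the other counts are not read against a background. After centring, 3 of 26 carriers were higher and 3 lower, against 10.4% and 11.1% of all 8103 genes. With the trend on level removed, 4 were higher and 5 lower, against 10.2% and 11.2%. The 5 included Slc25a25, which lay below the floor of 5.04 on the siTet2/3 array. The median difference of the carriers ran from -0.14 to -0.01 over all alternatives. A gene below the floor has no readable difference, and no array repeats another, so the spread between cultures is unknown.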
